A study of Caenorhabditis elegans with 2 samples.

Results

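The genes described here are the translation factor and tRNA synthetase genes of Caenorhabditis elegans, and the measurement is where the corepressor GEI-8 was found at their promoters. They are the protein-coding genes whose symbol starts with eif-, ife-, ifg- or eef-, or is 1 letter followed by ars-1 or ars-2, and there are 68 of them among 19973 protein-coding genes. By symbol, 31 belong to initiation, 6 to elongation and 31 to the synthetases. GEI-8, related to the corepressors NCoR and SMRT of vertebrates, was located by chromatin immunoprecipitation and sequencing in 1 group with 2 biological replicates. Both were whole L4 larvae of mixed sex, 48 hours old, grown from L1 larvae that were starved after bleaching. They were of strain OP589, which carries unc-119(tm4063) and the integrated transgene wgIs589, a gei-8::TY1::EGFP::3xFLAG fusion together with unc-119(+). The precipitation used an antibody against GFP. The tagged protein comes from this transgene in every sample, each value averages over all tissues (binding in more cells and more binding per cell cannot be told apart), and no untagged strain, other stage or mutant was analysed here.

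Protein synthesis starts when initiation factors bring the initiator tRNA, the small ribosomal subunit and the mRNA together. In this step eIF2 carries the initiator tRNA, eIF2B recharges eIF2 with GTP, eIF3 holds the small subunit, and the eIF4E proteins (ife genes) bind the mRNA cap. Elongation factors then deliver charged tRNAs (eEF1A, recharged by eEF1B) and move the ribosome along (eEF2). Aminoacyl-tRNA synthetases charge each tRNA with its amino acid, in the cytosol and, by separate or shared enzymes, in mitochondria. Many worm genes lie in operons, where a downstream gene is often transcribed from a promoter further upstream, and many transcripts are trans-spliced, so the annotated 5′ end can lie downstream of the true start.

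A promoter was taken as 1000 bp upstream to 200 bp downstream of the annotated 5′ end, and a gene was given the strongest peak with its summit there. Strength here means the caller's signal value as deposited for each peak, and it is compared between lists by rank, with rank 1 the strongest of 30000 relaxed peaks per list. A gene is called bound below when that peak was among the 1053 of the deposited reproducible list, which were also the 1053 strongest of the list called on both replicates pooled. The files hold peaks and no read counts, so the depth of the libraries is unknown. The promoter of gei-8 itself had no peak in any list. The strongest pooled summit of every member with a peak was more than 1000 bp away from the nearest annotated tRNA gene and snoRNA gene.

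The DNA under the summits is shown first for the bound members on chromosomes II, IV and X, because these windows carry the strongest promoter peaks. Each sequence runs 5′ to 3′ on the strand of the gene, from the RefSeq genome of build WBcel235 (ce11), up to 75 bases on either side of the summit and without annotated UTR bases. Capitals mark matches, on either strand, to 6 short motifs. These were AGGTCA (the core site of nuclear receptors), CACGTG (an E-box), GAGAGA (a short GA repeat), TGATAA (a site of GATA factors), GTTCGA (the core of the tRNA B box) and the word CTGCGTC. The windows are chrII:6968237-6968387 (minus strand), chrIV:390469-390559 (minus strand) and chrX:7823192-7823342 (plus strand).
eif-2Bgamma: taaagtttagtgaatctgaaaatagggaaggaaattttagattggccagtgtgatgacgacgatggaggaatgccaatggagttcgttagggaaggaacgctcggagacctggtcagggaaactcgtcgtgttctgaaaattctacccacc
ears-2: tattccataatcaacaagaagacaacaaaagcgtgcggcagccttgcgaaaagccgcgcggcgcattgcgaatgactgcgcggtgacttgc
eef-1A.2: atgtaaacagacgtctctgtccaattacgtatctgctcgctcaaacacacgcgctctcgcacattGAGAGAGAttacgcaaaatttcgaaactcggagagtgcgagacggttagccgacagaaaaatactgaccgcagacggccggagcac
The ears-2 stretch is the whole gap between this gene and its divergent neighbour. Its GC content was 53.8%, that of eef-1A.2 was 50.3% and that of eif-2Bgamma was 45.7%. The eef-1A.2 window alone held a match, to GAGAGA.

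Peaks of the reproducible list lay in the promoters of 5 members: eif-2Bgamma, eif-3.C, eef-1A.2, eef-2 and ears-2. This was 7.35% of the 68 (exact Clopper-Pearson 95% interval 2.43 to 16.3%), against 2.06% of all protein-coding genes. The 1053 strongest peaks of replicate 1 gave 4 members (5.88%, against 1.85% of all genes) and those of replicate 2 gave 5 (7.35%, against 2.17%), a mean of 6.62% ± 1.04 (SD, n = 2). A peak among the 1053 strongest of both replicates was found at 4 members (5.88%, against 1.32% of all genes), the 5 without eef-2. With a q-value of at most 0.05 in place of the reproducible list, 6 members passed in the pooled list (8.82%, against 3.56% of all genes), 7 in replicate 1 (10.3%, against 3.05%) and 6 in replicate 2 (8.82%, against 3.92%). The share of members was above that of all genes in each list, and no test of this difference was made, because the genes were chosen with earlier results of these data known. The intervals cover counting error over genes, and genes near each other are not independent.

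**Figure D1:**
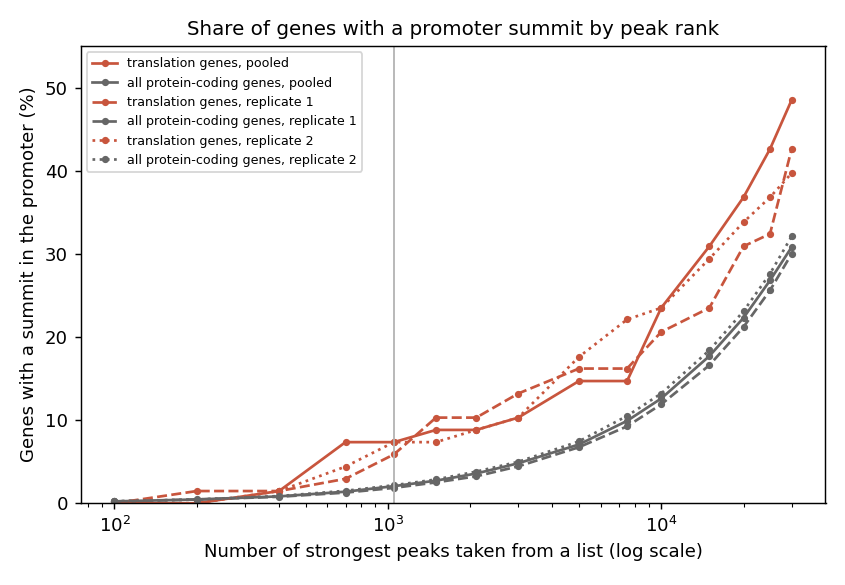
Share of genes with a summit in the promoter (y axis, %) when the strongest peaks of a list are taken down to a given number (x axis, log scale), for the 68 translation genes in red and all 19973 protein-coding genes in grey, in the pooled list and each replicate. At 1053 peaks (vertical line) the translation genes stood at 7.35% in the pooled list, 5.88% in replicate 1 and 7.35% in replicate 2, and at 30000 peaks at 48.5%, 42.6% and 39.7%.

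Among the very strongest peaks the lists differed. No member had one of the 200 strongest peaks in the pooled list or replicate 2 (against 0.456% and 0.451% of all genes), and 1 had one in replicate 1 (1.47%, against 0.451%). Further down the lists the members' share was above that of all genes. The 526 strongest peaks reached 2 members in the pooled list (2.94%, against 1.07% of all genes) and 1 in each replicate (1.47%, against 0.976% and 1.17%). The 2106 strongest reached 6 members in the pooled list (8.82%, against 3.58%), 7 in replicate 1 (10.3%, against 3.24%) and 6 in replicate 2 (8.82%, against 3.81%). Among the 5000 strongest pooled peaks, 10 members had a summit (14.7%, against 7.07% of all genes), among the 10000 strongest 16 (23.5%, against 12.6%), and among all 30000 there were 33 (48.5%, against 30.8%). For the replicates, the 5000 strongest peaks reached 11 members (16.2%, against 6.74%) and 12 members (17.6%, against 7.44%), and their full lists reached 29 (42.6%, against 30% of all genes) and 27 (39.7%, against 32.1%). Peaks at these ranks are weak, since the pooled q-value had reached 0.293 at rank 5000 and 0.520 at rank 10000. The median pooled rank of the 33 members with a peak was 10271, and that of the 6145 protein-coding genes with a peak was 12619.

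Among the initiation genes the strongest peak was at eif-2Bgamma, which encodes the gamma subunit of eIF2B (II, peak 6968087 to 6968536). It ranked 294 in the pooled list, 172 in replicate 1 and 640 in replicate 2, with signals of 201, 128 and 74.9 in the same order. Both replicates placed it among their strongest peaks, and their summits were 6 bp apart. The pooled summit lay 664 bp upstream of the 5′ end, in a coding exon of the neighbour C15F1.5, whose 3′ end is 252 bp before eif-2Bgamma on the same strand. The summit in the sequence above is therefore in coding DNA of that neighbour, and eif-2Bgamma is still the gene with the nearest protein-coding 5′ end.

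The other 4 eIF2B subunits did not share this peak strength. The delta subunit gene eif-2Bdelta had a pooled peak ranked 11177, seen at rank 5802 in replicate 2 and not listed in replicate 1, with its summit inside an annotated pseudogene 629 bp upstream. The alpha, beta and epsilon subunit genes (eif-2Balpha, eif-2Bbeta and eif-2Bepsilon) had no promoter peak in any of the 3 lists. A peak of the reproducible list was thus found at 1 of the 5 genes that encode the complex (20%, against 2.06% of all genes).

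Its substrate eIF2 showed weak pooled peaks at 2 of 3 subunits (66.7%, against 30.8% of all genes with a pooled peak). The gene eif-2gamma, for the GTP-binding subunit, ranked 3048 in the pooled list, 2759 in replicate 1 and 5488 in replicate 2 (q-values 0.143, 0.0977 and 0.342). Its summit lay 793 bp upstream and 18 bp upstream of tbca-1, the gene that ends 313 bp before it on the same strand, so tbca-1 has the nearer start. The alpha subunit gene eif-2alpha, whose protein is the target of stress kinases, had a summit in an intron 129 bp inside the gene that ranked 8466 pooled and 4276 in replicate 1, and it was not listed in replicate 2. For eif-2beta no list held a peak.

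In eIF3, the large scaffold complex, eif-3.C stood apart from the other subunits (I, peak 9979665 to 9980114). The peak ranked 651 in the pooled list, 688 in replicate 1 and 979 in replicate 2, with signals of 149, 81.1 and 65.3. All 3 ranks were inside the strongest 1053, and the replicate summits were 47 bp apart. The pooled summit was intergenic, 228 bp upstream, in the 401 bp between eif-3.C and the end of sys-1, the beta-catenin gene ahead of it on the same strand. Of the 11 eIF3 subunit genes, 5 had a pooled peak (45.5%, against 30.8% of all genes). The 4 besides eif-3.C were weak: eif-3.B ranked 7888, eif-3.J 10271, eif-3.F 16117 and eif-3.E 27186. A peak was listed at 4 of the 11 in replicate 1 (36.4%, against 30% of all genes). In replicate 2 it was 2 of the 11 (18.2%, against 32.1%), a share below that of all genes. The subunit genes eif-3.D, eif-3.G, eif-3.H, eif-3.I, eif-3.K and eif-3.L had none in any list.

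The gene eif-3.G was a near miss of the window, and it is named after its value was seen. A reproducible peak lay 1066 bp upstream of its 5′ end (II, peak 8441476 to 8441925), in an intron of lips-10, and eif-3.G was the protein-coding gene with the nearest 5′ end. It ranked 230 in the pooled list, 320 in replicate 1 and 181 in replicate 2. This is a higher pooled rank than any peak inside a member's window. With the window extended to 2000 bp upstream the count of bound members was 6 (8.82%, against 3.1% of all genes).

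The cap-binding eIF4E genes carried weak peaks that the replicates placed differently. For ife-3, the pooled rank was 11789 and the replicate ranks were 9191 and 10682, but the replicate summits were 1162 bp apart and are not the same site. The gene ife-4 ranked 22802 pooled, 26342 in replicate 1 and 11703 in replicate 2, and ife-2 ranked 26477 pooled and 25071 in replicate 1. For ife-1, ranks of 11301 and 9823 were found in the replicates with no pooled peak in the window. No list held a peak at ife-5, nor at ifg-1, the eIF4G scaffold that joins the cap-binding protein to the rest of the machinery.

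Among the remaining initiation genes, eif-6, which keeps ribosomal subunits apart, ranked 11808 pooled and 11776 in replicate 1. The start-site selection gene eif-1 ranked 26459 pooled and 14410 in replicate 2, and eif-2A ranked 29135 and 25116 in the same lists. These ranks are far down the relaxed lists, at pooled q-values of 0.578, 0.802 and 0.822. No list held a peak at eif-1.A, eif-2D or eif-4A3, the last of which encodes a helicase of the exon junction complex in other animals.

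**Figure D2:**
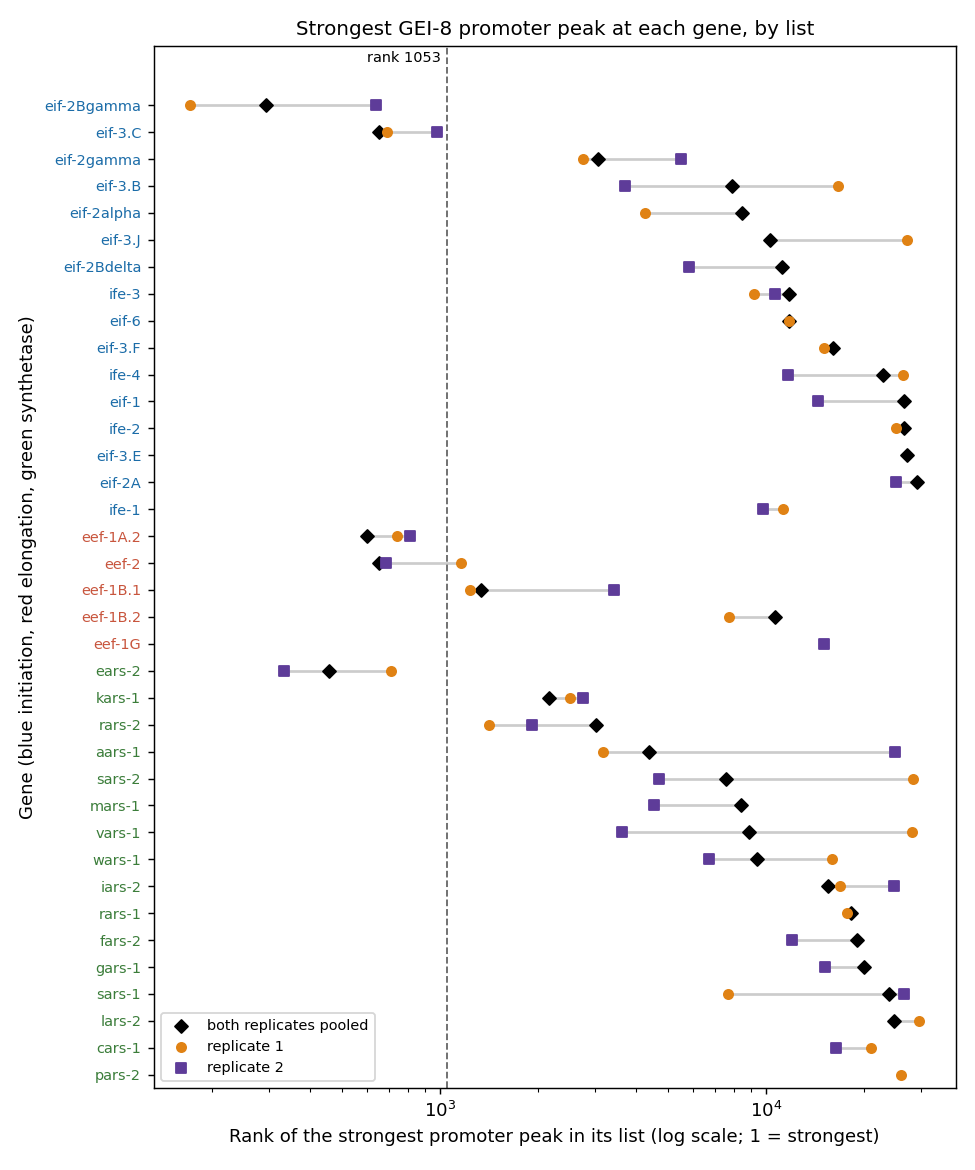
Rank of the strongest promoter peak (x axis, log scale, 1 is strongest) for each gene with a peak in at least 1 list, in the pooled list (diamonds), replicate 1 (circles) and replicate 2 (squares), with gene names coloured by role and a dashed line at rank 1053. The bound genes eif-2Bgamma, eif-3.C, eef-1A.2, eef-2 and ears-2 are the only ones with a pooled rank left of the line, and eef-2 is the only one of these with a replicate right of it (1163 in replicate 1).

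Of the elongation genes 2 of 6 were bound (33.3%, exact 95% interval 4.33 to 77.7%), beside 2 of 31 initiation genes (6.45%, interval 0.791 to 21.4%), 1 of 31 synthetase genes (3.23%, interval 0.0816 to 16.7%) and 2.06% of all genes. With the stronger 50% of the reproducible peaks the elongation count was 0 of 6 and the initiation count 1 of 31 (3.23%), against 1.07% of all genes. With 2 times as many pooled peaks they were 3 of 6 (50%) and 2 of 31 (6.45%), against 3.58%. Replicate 1 alone gave 1 of 6 elongation genes and replicate 2 gave 2 of 6. The intervals overlap widely, and no order of the roles is drawn from 6 genes. Of the 6, 4 had a pooled peak (66.7%, against 30.8% of all genes). Their median rank was 995, against 12619 over all protein-coding genes with a peak. This median rests on 4 peaks, at ranks 600, 650, 1340 and 10673.

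The eEF1A genes differed from each other. At eef-1A.2 (X, peak 7823042 to 7823491) the peak ranked 600 in the pooled list, 738 in replicate 1 and 812 in replicate 2, with signals of 154, 79.4 and 69.2. The summit was at the same base in all 3 lists, 387 bp upstream in intergenic DNA, with no other protein-coding promoter over it. This is the window printed above that holds overlapping GAGAGA matches. Its paralog eef-1A.1, on chromosome III, had no promoter peak in any of the 3 lists. Both genes encode eEF1A, which delivers charged tRNAs to the ribosome.

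The translocation factor gene eef-2 (I, peak 9163304 to 9163753) ranked 650 in the pooled list, 1163 in replicate 1 and 686 in replicate 2, with signals of 149, 68.0 and 73.3. Replicate 1 therefore placed it just outside its strongest 1053 peaks. Its pooled summit was 2 bp upstream of the 5′ end, in the promoter it shares with clsp-1, a gene that starts 265 bp away in the opposite direction. The replicate summits were 3 bp apart.

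Among the guanine nucleotide exchange subunits of eEF1, eef-1B.1 came closest to the reproducible list. Its peak (III, 7973011 to 7973460) ranked 1340 pooled, 1239 in replicate 1 and 3418 in replicate 2, with q-values of 0.0183, 0.0109 and 0.172. The pooled summit was 150 bp downstream of the 5′ end, in the first part of the coding sequence, and another pooled peak ranked 10109 lay nearer to the 5′ end. In replicate 1 the summit was 51 bp downstream, 99 bp from that of replicate 2. The pooled summit also lay in the promoter window of aco-2, which starts 331 bp away in the opposite direction. The window chrIII:7973161-7973270 (minus strand) starts at the start codon, has 47.3% GC and is shown because the summit is in coding sequence of the member itself.
eef-1B.1: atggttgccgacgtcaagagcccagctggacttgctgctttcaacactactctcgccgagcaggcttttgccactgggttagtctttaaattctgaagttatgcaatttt
The other eEF1B gene, eef-1B.2, ranked 10673 pooled and 7722 in replicate 1. For eef-1G, the gamma subunit, replicate 2 alone listed a peak, at rank 15101.

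**Figure D3:**
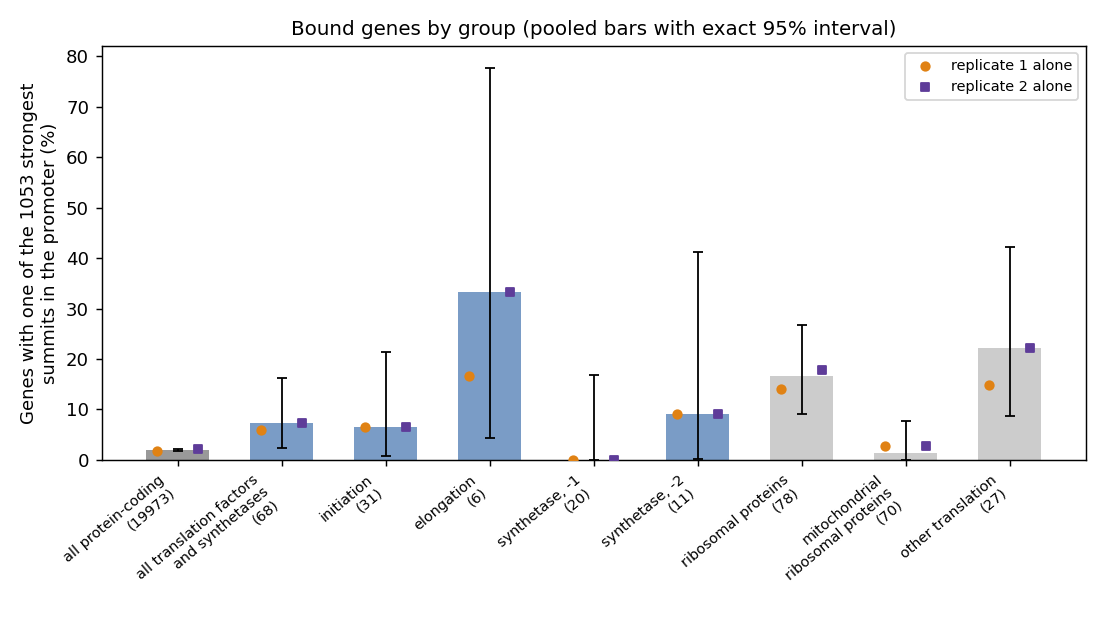
Percentage of genes with one of the 1053 strongest summits in the promoter (y axis) for all protein-coding genes, the 68 translation factor and synthetase genes, their role groups and the related lists, with the number of genes in brackets. Bars are the pooled list with exact 95% intervals and points are the replicates alone, and the 6 elongation genes have the widest of the intervals within the 68, from 4.33 to 77.7%.

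Of the 31 synthetase genes, 1 was bound (3.23%, against 2.06% of all genes), and it was ears-2. A pooled peak of any rank was found at 14 (45.2%, against 30.8%), at a median rank of 9145. It encodes the mitochondrial glutamyl-tRNA synthetase (IV, peak 390273 to 390722). The peak ranked 457 in the pooled list, 708 in replicate 1 and 334 in replicate 2, with signals of 172, 80.4 and 92.9. Replicate 2 held it higher than any other member, and the replicate summits were 13 bp apart. The pooled summit was 30 bp upstream, in the 92 bp that separate ears-2 from uncp-18, which starts in the opposite direction, so the peak covers both promoters. The cytosolic glutamyl-tRNA synthetase gene ears-1 had no peak in any list.

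The next synthetases were kars-1, rars-2 and aars-1. At kars-1, for lysine, the peak (II, 7072402 to 7072851) ranked 2165, 2510 and 2743 in the pooled list, replicate 1 and replicate 2, with q-values of 0.0575, 0.0823 and 0.101, and its summit was intergenic, 212 bp upstream. At rars-2, the mitochondrial arginine enzyme, the peak (II, 6125438 to 6125887) ranked 1416 in replicate 1 and 1923 in replicate 2 but 3019 in the pooled list, lower than in either. Its replicate summits were 168 bp apart, at 116 bp downstream and 52 bp upstream of the 5′ end. At aars-1, for alanine, the peak (II, 11464425 to 11464874) ranked 4370 pooled, 3169 in replicate 1 and 24964 in replicate 2. The replicates therefore matched at kars-1 and differed widely at aars-1. The pooled aars-1 summit, 153 bp upstream, also lay in the promoter window of rga-1, which starts 397 bp away in the opposite direction.

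The windows of kars-1 (chrII:7072552-7072702, minus strand, 31.1% GC) and aars-1 (chrII:11464575-11464725, minus strand, 52.3% GC) are shown because they are intergenic promoter sites that differ in base composition. The aars-1 window holds matches to GAGAGA and, on the other strand, to CTGCGTC, and the kars-1 window holds none of the motifs searched.
kars-1: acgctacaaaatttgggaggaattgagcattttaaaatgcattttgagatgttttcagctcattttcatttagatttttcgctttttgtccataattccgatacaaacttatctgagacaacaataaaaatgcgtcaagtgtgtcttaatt
aars-1: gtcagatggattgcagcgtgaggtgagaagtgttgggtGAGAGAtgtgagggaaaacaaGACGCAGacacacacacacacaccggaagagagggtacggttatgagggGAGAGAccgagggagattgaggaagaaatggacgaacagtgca

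Further synthetase peaks were weaker. At sars-2 the ranks were 7531 pooled, 28344 in replicate 1 and 4702 in replicate 2, and at vars-1 they were 8909, 28026 and 3614. At wars-1 they were 9381, 15951 and 6690, and at mars-1 they were 8394 pooled and 4531 in replicate 2, with none in replicate 1. These 4 genes, for serine, valine, tryptophan and methionine, had a higher rank in replicate 2 than in replicate 1 or were listed there alone. The opposite held for sars-1, at 23858 pooled, 7663 in replicate 1 and 26471 in replicate 2, with replicate summits 320 bp apart. The pooled ranks of iars-2, rars-1, fars-2, gars-1 and lars-2 were 15538, 18293, 19038, 20011 and 24799. In cars-1 and pars-2 no pooled peak was listed, with ranks of 21006 and 16365 in the replicates for cars-1 and 25997 in replicate 1 for pars-2.

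No list held a promoter peak at aars-2, dars-1, dars-2, ears-1, fars-1, hars-1, iars-1, lars-1, nars-1, nars-2, pars-1, qars-1, tars-1, yars-1 or yars-2. In all, 31 of the 68 members (45.6%) had no peak in any of the 3 lists, against 55.1% of all protein-coding genes. They were these 15 synthetases, 15 initiation genes and eef-1A.1. The initiation genes among them were eif-1.A, eif-2beta, eif-2Balpha, eif-2Bbeta, eif-2Bepsilon, eif-2D, eif-3.D, eif-3.G, eif-3.H, eif-3.I, eif-3.K, eif-3.L, eif-4A3, ife-5 and ifg-1.

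Cytosolic and mitochondrial synthetases were separated by the number in the symbol, where 1 usually stands for the cytosolic and 2 for the mitochondrial enzyme. None of the 20 genes numbered 1 was bound (exact 95% interval 0 to 16.8%) and 1 of the 11 numbered 2 was (9.09%, interval 0.230 to 41.3%), against 2.06% of all genes. A pooled peak of any rank was found at 8 of 20 (40%) and 6 of 11 (54.5%), against 30.8% of all genes, with median ranks of 9145 and 11534.5. The median ranks were 15951 and 21450 in replicate 1. In replicate 2 their order was turned, at 10958.5 and 4702. The number does not always give the compartment. RefSeq product names state it for 13 of the 31 genes and go against the number in 2 of them, since aars-1 is named as the mitochondrial alanine enzyme and aars-2 as the cytoplasmic one. By product name, 3 of 3 mitochondrial genes (ears-2, rars-2 and aars-1) and 4 of 10 cytoplasmic genes had a pooled peak, and the other 18 could not be placed.

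For 11 amino acids a gene of each number is annotated. A pooled peak was present at the gene numbered 2 alone for 4 of these pairs (ears, fars, iars and lars), at the gene numbered 1 alone for 1 (aars), at both for 2 (rars and sars) and at neither for 4 (dars, nars, pars and yars). In both pairs with 2 peaks the gene numbered 2 had the stronger pooled peak, by rank, at 3019 against 18293 for rars and 7531 against 23858 for sars. In replicate 1 the order of the sars pair was turned, with sars-1 at 7663 and sars-2 at 28344. The replicate summits of sars-1 were 320 bp apart, so its ranks may belong to different sites. The pooled summits at sars-2 and iars-2 lay in coding exons of W03B1.9 and C25A1.20. That at sars-1 lay in an intron of C47E12.2. In each case that other gene has the nearer protein-coding 5′ end, so these peaks may not belong to the synthetase genes. With 7 pairs to compare, most of them at weak peaks, no order of the compartments was drawn from these values.

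Synthetase genes of either number were also set beside their neighbours. Of the 11 genes numbered 2, 8 (72.7%) have a 5′ end within 1000 bp behind the 3′ end of another gene on the same strand, the layout of many operon genes, against 4 of 20 (20%) numbered 1 and 28.9% of all protein-coding genes. The bound gene ears-2 is not one of the 8. Over all 68 members, 25 have this layout and 2 of them were bound (8%), while 3 of the other 43 were (6.98%). Among all protein-coding genes the shares were 1.94% and 2.10%. A divergent protein-coding start lies within 1000 bp of 29 members (42.6%, against 17.7% of all genes). Of those 29, 9 had a pooled peak (31.0%), and of the other 39, 24 had one (61.5%), against 34.4% and 30% over all genes.

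**Figure D4:**
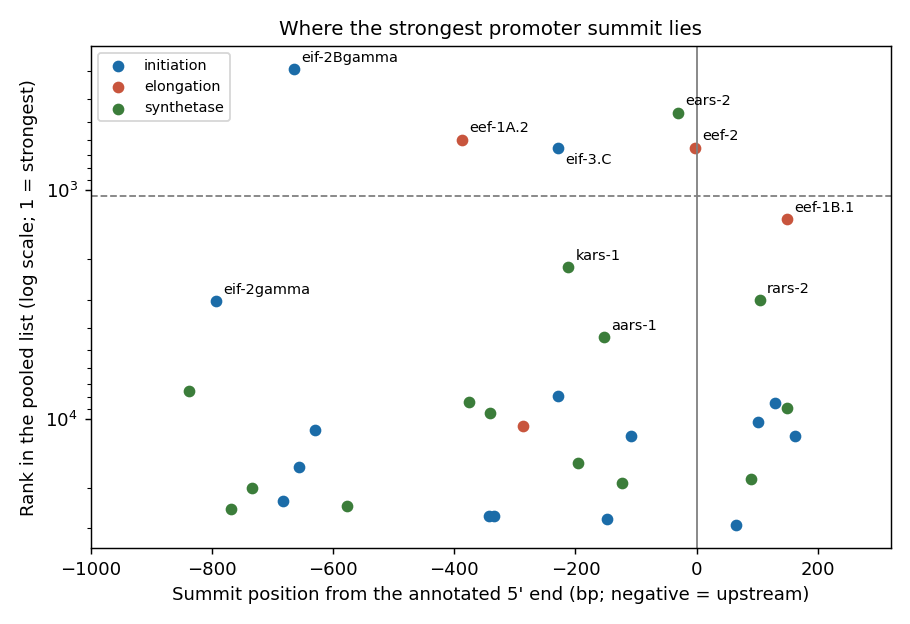
Position of the strongest pooled summit relative to the annotated 5′ end (x axis, bp, negative is upstream) against its pooled rank (y axis, log scale, strongest at the top) for the 33 members with a pooled peak, coloured by role, with a dashed line at rank 1053. The 5 bound genes lie between 664 and 2 bp upstream, and eef-1B.1 and rars-2 are the members with a rank under 5000 whose summit is downstream.

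The window reaches further upstream than downstream, so most summits in it lie upstream. Over the 33 with a pooled peak the median position was -228 bp (quartiles -577 and -2 bp), with 8 downstream of the 5′ end (24.2%, against 20.7% of all protein-coding genes with a peak), and the median of the 6145 genes was -310 bp. The pooled summit was intergenic at 17 members, in a coding exon at 10, in an intron at 5 and in a pseudogene at 1. At 28 of the 33 the member itself had the nearest protein-coding 5′ end, and at 11 the summit also lay in the promoter window of another protein-coding gene. A peak at such a site cannot be given to one of the genes from these files. The counts of summit place, nearest 5′ end and shared windows were made for the members only. They have no share over all genes beside them, so no trait of the members is drawn from them. By chromosome, a pooled peak was present at 9 of 21 members on I (42.9%, against 33.3% of all genes there), 8 of 15 on II (53.3%, against 31.4%) and 3 of 11 on III (27.3%, against 35.1%). It was present at 5 of 10 on IV (50%, against 27.3%), 5 of 8 on V (62.5%, against 26.5%) and 3 of 3 on X (against 35.1%).

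Replicates could be compared by rank at the 20 members with a peak in both (29.4% of the 68 and 18.5% of all protein-coding genes). The 2 ranks of a gene can belong to different sites, since the replicate summits were 1162 bp apart at ife-3 and 502 bp apart at cars-1. Across these 20 genes the ranks had a Spearman rho of 0.68, and across the 3697 protein-coding genes with a peak in both it was 0.50. The roles differed, with 0.75 across 7 initiation genes and 0.38 across 10 synthetase genes. Across the 6 synthetase genes numbered 1 it was -0.029. These values are descriptions over genes, which share both libraries and 1 control alignment. In 12 of the 20, the replicate summits were within 100 bp of each other, and these include the 5 bound genes. The reproducible list was itself chosen for agreement of the replicates, so close summits at the bound genes are not separate evidence. The same share over all protein-coding genes is not given here.

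The motif counts at the members' summits are small and lay on either side of the background shares. In the 151 bp around the pooled summit, GAGAGA on either strand was found at 1 of the 5 bound members (eef-1A.2) and at 3 of the 33 with a pooled peak (9.09%), against 29.1% of the 1053 reproducible peaks, 13.3% of the 30000 relaxed peaks and 11% of 151 bp windows on all protein-coding 5′ ends. CTGCGTC was at 1 of 33 (3.03%, against 9.31%, 2.66% and 1.63% in the same order), and it was the one at aars-1. AGGTCA was at none of the 33, against 4.75%, 4.47% and 3.95%. CACGTG was at 1 of 33 (3.03%, against 11.3%, 4.46% and 3.23%). GTTCGA was at 3 (9.09%, against 15.6%, 6.93% and 5.81%), and TGATAA was at 6 (18.2%, against 13.5%, 13% and 15.8%). Most of the 33 peaks are outside the reproducible list, so the relaxed peaks are the closer reference. Over the full 151 bp the 5 bound windows had a median GC content of 47.7% (range 43.0 to 51.7%), against 46.4% over the reproducible peaks, 41.1% over the relaxed peaks and 35.8% over the 5′ ends.

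Other genes of translation give the setting for these counts, and among all protein-coding genes 2.06% were bound and 30.8% had a pooled peak. Of 78 ribosomal protein genes (rpl and rps), 13 were bound (16.7%, 11 and 14 in the replicates) and 60 had a pooled peak (76.9%). Of 70 mitochondrial ribosomal protein genes (mrpl and mrps), 1 was bound (1.43%, 2 in each replicate) and 27 had a pooled peak (38.6%). A list of 27 translation genes outside the symbol rule was chosen with earlier results of these data known. It had 11 genes with a pooled peak (40.7%) and 6 bound (22.2%, 4 and 6 in the replicates). These were ifet-1, an eIF4E-binding repressor, at rank 55, drr-2, an eIF4H relative, at 135, pab-2, a poly(A)-binding protein, at 290, iff-2, an eIF5A gene, at 426, abcf-2 at 456 and larp-1, a La-related protein, at 940. Of these sites, 5 lay in the window of another protein-coding gene as well, among them rps-1 at ifet-1 and the adenine nucleotide translocator ant-1.1 at abcf-2, and the iff-2 summit was 643 bp from a snoRNA gene. The ifet-1 summit lay in an annotated RNA gene or pseudogene. The eIF4A gene inf-1, the S6 kinase gene rsks-1 and the TOR kinase gene let-363 had no peak in any list.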

How the data were processed

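GEI-8 chromatin immunoprecipitation was analysed in 2 replicates of 1 group. The deposited lists give each peak a signal from the authors' peak caller, a −log10 q-value and a summit offset. Per the texts deposited beside the files, the lists are in assembly ce11 and 1 control alignment served every list, so the replicate lists are not fully independent. The aligner is not given in the sources used here, nor is the peak caller. Signal was compared between lists by rank.

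Summits were joined to Ensembl release 115 of WBcel235, the same assembly, with sequence from RefSeq. All peaks lay within its chromosomes, and 99.9% of annotated start codons read ATG in it. RNA genes near summits were taken from the same annotation. The join was tested on simulated data, where 200 of 200 planted peaks were recovered among 19973 genes. Python 3.11.15, numpy 2.4.6, pandas 2.3.3, scipy 1.17.1 and matplotlib 3.10.9 were used.

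The members, lists and motifs were chosen with earlier results of these data known, so shares are given with exact 95% intervals beside the same over all genes and without tests. Named were the bound members, those strong in either replicate, the next 15 by pooled rank, the members without any peak, and gei-8, and the remaining members for completeness. Of 29 other translation genes listed, 27 were found in the annotation.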

Additional observations from a re-analysis of the deposited data

How the results depend on the processing

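The count of bound members was between 2 and 6 over 12 alternatives, and its share was above that of all protein-coding genes in each. It fell to 2 with the stronger 50% of the peaks (ears-2 and eif-2Bgamma) and to 3 of 43 when genes that start up to 1000 bp behind a same-strand neighbour were left out. The counts per role rest on 1 or 2 genes. Initiation fell from 2 to 1 with the window of 500 bp upstream to 100 bp downstream and with the stronger 50% of the peaks. It fell to 0 without the genes behind another gene. It rose to 3 with the window of 2000 bp upstream and when any overlap of a peak with the window counted. Elongation rose from 2 to 3 with 2 times as many pooled peaks. Elongation fell from 2 to 0 with the stronger 50% of the peaks and to 1 when a strong peak was asked for in both replicates, an alternative chosen after seeing the data. Leaving out 1 replicate gave 4 or 5 bound members, 2 initiation genes in each case, 1 or 2 elongation genes (eef-2 was lost without replicate 2), 1 synthetase numbered 2 and 0 numbered 1. In the window of 500 bp upstream the members with a pooled peak fell from 33 (48.5%) to 19 (27.9%). A narrower window lowers this count for any set of genes. The share of all protein-coding genes with a pooled peak in it was not counted, so nothing about the members is drawn from this fall. Compartment by product name placed fewer genes and gave 4 cytoplasmic and 3 mitochondrial synthetases with a pooled peak in place of 8 and 6. The rank of eef-1B.1 was 10109 with the shorter window or the nearest summit. No paired analysis was possible because there is 1 group. Depth is unknown, so a gene without a peak may still carry weak signal.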
